A study of Homo sapiens with 6 samples.

Results

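The ERBB family of receptor tyrosine kinases, its ligands and the receptor inhibitor ERRFI1 were followed in C42 cells, an LNCaP-derived prostate cancer line of human origin, often spelled C4-2. The set was fixed by name and holds 10 genes, of which 8 had a row among the 31413 rows of the counts table. These are the receptor genes EGFR, ERBB2, ERBB3 and ERBB4, the ligand genes AREG, HBEGF and TGFA, and ERRFI1. The ligand genes EREG and NRG1 had no row and are not analysed here. Of the 8, 6 passed the low-count filter and were tested, and ERBB4 and AREG were too low to judge.

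A first group of cells carried the control shRNA shCTR, and a second group an shRNA directed at NSD2, labelled shNSD2 and, by the gene's other name, shWHSC1. NSD2 encodes an enzyme that dimethylates histone H3 at lysine 36. All cells grew in RPMI medium with fetal bovine serum, so growth factors from serum were present in both groups. Each group held 3 RNA-seq libraries. Those of shCTR carry the numbers 1, 2 and 4, and those of shNSD2 the numbers 1, 2 and 3. How the shRNA was delivered, and whether the libraries came from separate cultures, is not given in the sources used here, so the p-values measure a spread between libraries that may be technical.

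ERBB receptors sit at the cell surface and act in pairs. Ligands of the EGF family are made as membrane-bound precursors, are cut free by ADAM proteases, and bind EGFR, ERBB3 or ERBB4. ERBB2 has no known ligand of its own and serves as a partner, and ERBB3 has little kinase activity and signals through its partners, mainly to PI3K. Active EGFR drives the RAS-MAPK cascade, and ERRFI1, also named MIG6, binds the EGFR kinase domain and inhibits it. In the prostate, EGFR is typical of basal cells and ERBB3 of luminal cells.

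The 250 bases upstream of the RefSeq start sites of EGFR and ERRFI1 are shown because these were the 2 members called changed, in opposite directions. Capitals mark the GC box GGGCGG on either strand. Sequences are from RefSeq on GRCh38.p14, read 5′ to 3′ on the strand of the gene.
EGFR, chr7:55018767-55019016, plus strand: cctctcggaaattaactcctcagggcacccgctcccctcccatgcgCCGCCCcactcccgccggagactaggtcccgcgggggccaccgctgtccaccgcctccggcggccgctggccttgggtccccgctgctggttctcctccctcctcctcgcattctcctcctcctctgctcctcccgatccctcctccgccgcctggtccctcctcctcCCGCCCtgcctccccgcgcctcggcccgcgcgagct
ERRFI1, chr1:8026310-8026559, minus strand: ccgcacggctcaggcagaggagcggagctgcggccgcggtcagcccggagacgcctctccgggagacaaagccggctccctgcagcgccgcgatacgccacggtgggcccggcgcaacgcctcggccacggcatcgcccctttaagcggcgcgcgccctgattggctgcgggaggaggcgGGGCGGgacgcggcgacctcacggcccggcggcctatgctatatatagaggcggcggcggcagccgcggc
The EGFR window held 2 GC boxes and the ERRFI1 window 1. A GC box was present in 42.6% of 35116 RefSeq upstream windows of the same length, overlapping matches included. Neither window held TATAAA (10.7% of all windows) or the AP-1 element TGANTCA (6.57%), searched on both strands. Both windows were rich in G and C, 73.6% for EGFR and 75.2% for ERRFI1, against a median of 58.0% over all windows. A match is a description of the letters only.

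NSD2 transcript was lower in every shNSD2 library, which checks the labels. It stood at 219, 223 and 200 CPM (counts scaled to the library total, with TMM factors) in shCTR 1, 2 and 4 and at 85.3, 86.4 and 89.7 CPM in shNSD2 1, 2 and 3. Library totals ran from 19412896 to 20665494 counts, so 3 counts, used as a floor for counting error, equal 0.144 to 0.156 CPM. Luminal prostate markers were abundant in both groups, with KLK3 between 5590 and 7038 CPM. Of 7 basal markers 5 had a row, with a sum of 23.6 to 37.0 CPM in shCTR and 20.1 to 25.6 CPM in shNSD2, most of it DST. The defining basal genes KRT5 and TP63 had no row, and KRT14 stood at 0.561 to 1.61 CPM. Of 8 leukocyte markers 6 had a row, with a sum of 2.75 to 3.37 CPM in shCTR and 2.72 to 4.79 CPM in shNSD2, and PTPRC had no row. Of 8 fibroblast and endothelial markers 6 had a row, with a sum of 26.4 to 29.4 CPM in shCTR and 36.3 to 40.4 CPM in shNSD2, most of it COL1A1. COL1A1 and VWF were called higher and COL3A1 lower, the last from 1.2045 ± 0.214 to 0.252 ± 0.0928 CPM (n = 3, SD; edgeR adjusted p = 0.00217). Of 6 neuroendocrine markers 3 had a row, with a sum of 7.97 to 12.5 CPM in shCTR and 15.8 to 16.4 CPM in shNSD2, nearly all of it SYP and ENO2. SYP, a synaptic vesicle protein gene, rose from 4.38 ± 0.280 to 6.83 ± 1.05 CPM (n = 3, SD; edgeR adjusted p = 0.0133), ENO2 did not pass the test, and CHGA, CHGB and INSM1 had no row. The part of these markers in the results on the receptors and ligands was not tested.

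The comparison asks how the transcripts of this receptor system differ between shNSD2 and shCTR cells. EGFR fell 2.48-fold, and ERRFI1, the inhibitor of EGFR, rose 1.34-fold. ERBB2, ERBB3, HBEGF and TGFA did not pass the test. The threshold was an adjusted p under 0.05 in edgeR's quasi-likelihood test, with Benjamini-Hochberg adjustment over all 17160 genes tested. Thus 1 tested member was higher and 1 lower out of 6, beside 15.5% of all tested genes called higher, 15.2% called lower and 30.7% called in either direction. A share of 2 in 6 is near that background. Without shCTR 4, 3 members were lower.

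EGFR, the receptor for EGF, TGF-alpha, amphiregulin and HB-EGF, gave 472, 380 and 197 CPM in shCTR 1, 2 and 4 and 156, 144 and 123 CPM in shNSD2 1, 2 and 3. The groups did not overlap, but shCTR 4 was far below the other controls and closer to the knockdown libraries. The mean level was 350 ± 140 CPM in the controls and 141 ± 16.7 CPM in shNSD2 (n = 3 each, SD), a log2 fold change of -1.31 (SE 0.249, edgeR adjusted p = 0.00484). In bulk RNA, fewer cells that express EGFR and less transcript per cell cannot be told apart. On the log2 scale shCTR 4 had covered 69.1% of the distance from the other controls to the knockdown mean, whereas for NSD2 itself it had covered 10.6%. Without shCTR 4 the log2 fold change of EGFR was -1.60 (edgeR adjusted p = 6.38e-08), and without shCTR 1 it was -1.05 (edgeR adjusted p = 0.00871). Permuting the EGFR CPM values over the libraries (exact, two-sided) gave p = 0.1, which no design of 3 against 3 can go below.

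EGFR (ENSG00000146648) lies on chromosome 7 of GRCh38 from 55019021 to 55211628 on the plus strand. The antisense gene EGFR-AS1 lies within it and shares 186 bases of exon. It was low, at 0.917 ± 0.393 CPM in shCTR and 0.438 ± 0.162 CPM in shNSD2, and did not pass the test (n = 3, SD; edgeR adjusted p = 0.0727). Its highest value in a library was 1.205 CPM, and the lowest value of EGFR was 123 CPM.

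ERBB3, the neuregulin receptor, gave 389, 369 and 333 CPM in shCTR 1, 2 and 4 and 334, 308 and 289 CPM in shNSD2 1, 2 and 3. The groups overlapped by a hair, because shCTR 4 lay just under shNSD2 1. It averaged 364 ± 28.2 CPM in shCTR against 311 ± 22.7 CPM in shNSD2 (n = 3, SD), a log2 fold change of -0.23 that did not pass the test (SE 0.103, edgeR adjusted p = 0.113). Without shCTR 4, which had covered 64.2% of the shift, the log2 fold change was -0.29 and passed (edgeR adjusted p = 0.0167). ERBB3 (ENSG00000065361) lies on chromosome 12 from 56076799 to 56103505.

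ERBB2, the partner receptor, lay in the other direction from EGFR and ERBB3. It gave 198, 195 and 167 CPM in shCTR 1, 2 and 4 and 256, 222 and 203.5 CPM in shNSD2 1, 2 and 3. All 3 knockdown libraries were above all 3 controls, the closest pair being shNSD2 3 and shCTR 1. It averaged 187 ± 17.1 CPM in shCTR against 227 ± 26.5 CPM in shNSD2 (n = 3, SD), a log2 fold change of 0.28 that did not pass the test (SE 0.112, edgeR adjusted p = 0.0784). Here shCTR 4 was the lowest control, so it stood on the far side from the knockdown libraries, unlike for EGFR. With a library left out the log2 fold change ran from 0.19, without shNSD2 1, to 0.35, without shNSD2 3, and none of these 6 fits called it (edgeR adjusted p from 0.0846 to 0.268). A correction for GC content and gene length, chosen after the data were seen, gave 0.33 with an edgeR adjusted p = 0.0203, and was the 1 of 10 alternative settings that called it.

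ERBB2 (ENSG00000141736) lies on chromosome 17 from 39687914 to 39730426 on the plus strand. MIEN1, on the opposite strand, shares 571 bases of exon with it and rose from 30.6 ± 8.99 to 45.9 ± 3.57 CPM (n = 3, SD; edgeR adjusted p = 0.0246). PGAP3, also opposite, shares 194 bases and gave 28.2 ± 2.63 and 28.97 ± 0.1496 CPM (n = 3, SD; edgeR adjusted p = 0.777). The strand setting of the counting is not given in the sources used here, and the part of MIEN1 reads in the value of ERBB2 was not tested.

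ERBB4, a second neuregulin receptor, had 7, 1 and 0 counts in shCTR 1, 2 and 4 and 0 counts in each shNSD2 library. Its 7 counts in shCTR 1 are the only value above the floor of 3 counts. ERBB4 was below the filter and no change can be judged.

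**Figure D1:**
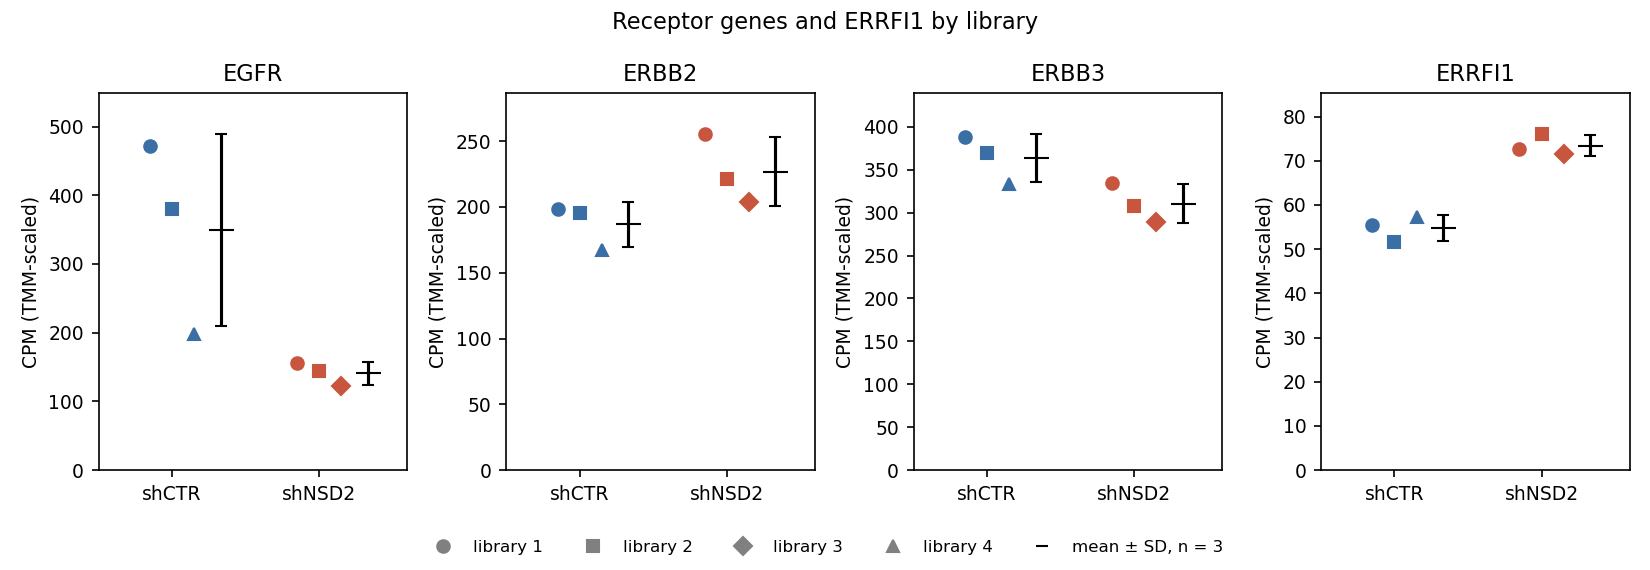
CPM of EGFR, ERBB2, ERBB3 and ERRFI1 in each of the 6 libraries (points, shape by library number, blue for shCTR and red for shNSD2) with the mean ± SD of 3 libraries per group, on linear axes from 0 that differ between genes. EGFR in shCTR 4 sits at 197 CPM, between the other controls and the knockdown libraries, whereas ERRFI1 shows a clear gap between the groups.

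Levels of different genes were compared per kb of exon, all annotated exons of a gene merged. In shCTR the order was ERBB3 (40.2 ± 3.12 CPM per kb), EGFR (27.9 ± 11.2), ERBB2 (18.1 ± 1.66), ERRFI1 (13.1 ± 0.691), HBEGF (2.52 ± 0.412) and TGFA (0.230 ± 0.0577) (n = 3, SD). The range of EGFR in shCTR, 15.8 to 37.7 CPM per kb, overlapped that of ERBB2, 16.2 to 19.2, and that of ERBB3, 36.9 to 43.0. In shNSD2 the order was ERBB3 (34.4 ± 2.51 CPM per kb), ERBB2 (22.0 ± 2.56), ERRFI1 (17.5 ± 0.573), EGFR (11.3 ± 1.33), HBEGF (1.97 ± 0.0546) and TGFA (0.235 ± 0.0502) (n = 3, SD), and no neighbours in it overlapped. EGFR thus went from the second to the fourth place of these genes. With the longest transcript as the length, ERBB2 (37.9 ± 3.47 CPM per kb) and not EGFR (35.6 ± 14.2) was second in shCTR, and the ranges of ERBB2 and ERBB3 overlapped in shNSD2.

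As a share of the summed CPM per kb of the 4 receptor genes, EGFR made up 37.7%, 33.7% and 22.9% in shCTR 1, 2 and 4 and 16.8%, 17.1% and 16.0% in shNSD2 1, 2 and 3. ERBB2 made up 19.2%, 21.0% and 23.5% in the controls and 33.4%, 32.02% and 32.04% in the knockdown libraries. For both genes the groups did not overlap, and the knockdown libraries lay within a narrow band. ERBB3 was the most abundant receptor gene in every library, with 43.0% to 53.6% in shCTR and 49.8% to 52.0% in shNSD2, ranges that overlapped. The ratio of EGFR to ERBB2 per kb was 1.96, 1.61 and 0.973 in shCTR 1, 2 and 4 and 0.503, 0.535 and 0.498 in shNSD2 1, 2 and 3. The ratio of ERBB3 to ERBB2 per kb was 2.24, 2.16 and 2.28 in the controls and 1.49, 1.59 and 1.62 in the knockdown libraries. In this ratio shCTR 4 stood with the other controls, which it did not do for EGFR. These shares and ratios are descriptions with no test, and a share of one receptor falls as another rises.

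**Figure D2:**
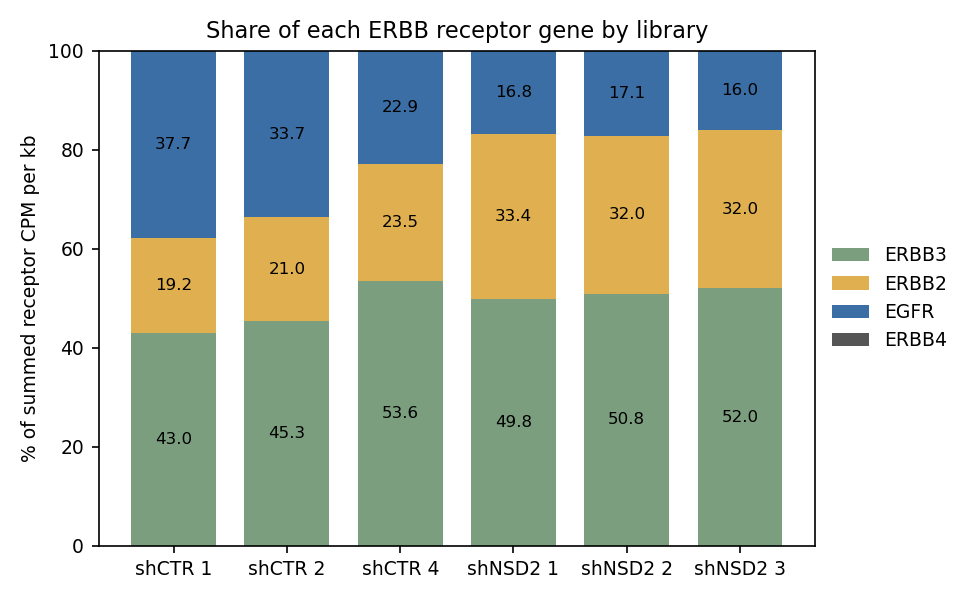
Percentage of the summed CPM per kb of EGFR, ERBB2, ERBB3 and ERBB4 taken by each gene, 1 stacked bar per library. EGFR takes 22.9% to 37.7% in the shCTR libraries and 16.0% to 17.1% in the shNSD2 libraries, and ERBB4 is too small to see.

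Of the 3 ligand genes with a row, HBEGF was the highest per kb. HB-EGF is made as a membrane-bound growth factor that binds EGFR and ERBB4. HBEGF gave 8.997, 7.18 and 6.62 CPM in shCTR 1, 2 and 4 and 6.12, 5.85 and 5.82 CPM in shNSD2 1, 2 and 3. The groups did not overlap, but shCTR 4 was close to shNSD2 1. It averaged 7.60 ± 1.24 CPM in shCTR against 5.93 ± 0.165 CPM in shNSD2 (n = 3, SD), a log2 fold change of -0.36 that did not pass the test (SE 0.147, edgeR adjusted p = 0.0856). Without shCTR 4 it was -0.45 and passed (edgeR adjusted p = 0.0199). HBEGF (ENSG00000113070) lies on chromosome 5 from 140332843 to 140346631.

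TGFA, which encodes the EGFR ligand TGF-alpha, had only 18 to 30 counts per library. It gave 1.47, 1.01 and 0.938 CPM in shCTR 1, 2 and 4 and 1.02, 1.03 and 1.45 CPM in shNSD2 1, 2 and 3. The groups overlapped fully. Its log2 fold change was 0.04 (SE 0.277, edgeR adjusted p = 0.931), and its sign turned when some libraries were left out, so no direction is given. AREG, which encodes amphiregulin, had 0, 0 and 3 counts in shCTR 1, 2 and 4 and 1, 0 and 2 counts in shNSD2 1, 2 and 3. No library was above the floor of 3 counts, so AREG could not be judged at this depth.

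Counting non-overlap of CPM in place of the test, 4 of the 6 tested members (EGFR, ERBB2, HBEGF and ERRFI1) had groups that did not overlap. Over all tested genes this held for 46.8%.

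**Figure D3:**
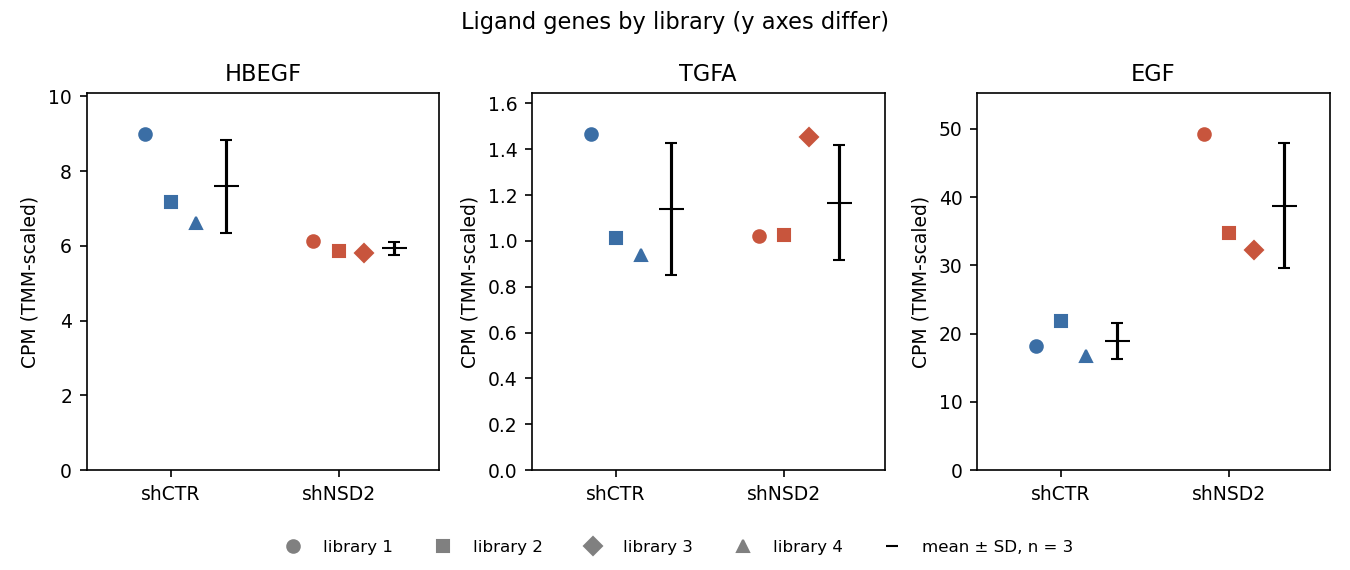
CPM of the ligand genes HBEGF, TGFA and EGF in each of the 6 libraries (points, shape by library number) with the mean ± SD of 3 libraries per group, on linear axes from 0 that differ between genes. HBEGF lies lower and EGF higher in all 3 shNSD2 libraries, and TGFA overlaps.

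ERRFI1, the feedback inhibitor, gave 55.4, 51.6 and 57.2 CPM in shCTR 1, 2 and 4 and 72.6, 76.1 and 71.5 CPM in shNSD2 1, 2 and 3. The libraries were tight within each group and the groups were well apart. The mean rose from 54.7 ± 2.89 to 73.4 ± 2.40 CPM (n = 3, SD), a log2 fold change of 0.42 (SE 0.0814, edgeR adjusted p = 0.00506). ERRFI1 remained called whichever library was left out, with edgeR adjusted p from 0.000243 to 0.0320, and shCTR 4 had covered 21.6% of its shift. ERRFI1 (ENSG00000116285) lies on chromosome 1 from 8004404 to 8026308 on the minus strand. An antisense gene, AL034417.4, shares 155 bases of exon with it and fell from 2.48 ± 0.394 to 1.26 ± 0.193 CPM (n = 3, SD; edgeR adjusted p = 0.00991), opposite in direction and small in level beside ERRFI1.

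**Figure D4:**
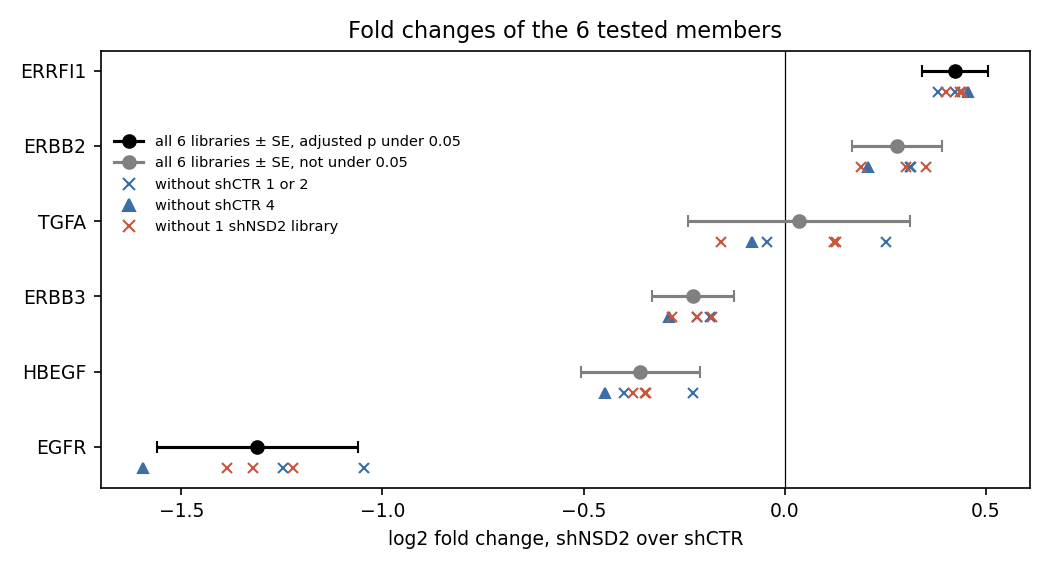
Log2 fold change of shNSD2 over shCTR for the 6 tested members (circles, ± SE, black where the adjusted p was under 0.05), with the value when each library was left out below it. EGFR ranges from -1.60 without shCTR 4 (triangle) to -1.05, ERRFI1 stays between 0.38 and 0.46, and TGFA falls on both sides of 0.

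The rest of the pathway was read from 6 lists with 94 entries, of which 91 had a row and 81 were tested. In these lists 13 genes were higher and 18 lower, or 38.3% called, beside 30.7% of all genes. The number called was 8 without shNSD2 3, 10 without shNSD2 2, 13 without shCTR 1 or shCTR 2, 15 without shNSD2 1 and 45 without shCTR 4. The median log2 fold change over all genes tested was 0.01.

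Of 6 other EGF family ligands, 4 had a row and 2 were tested. EGF, the founding ligand of EGFR, rose while its receptor fell. It gave 18.1, 21.9 and 16.8 CPM in shCTR 1, 2 and 4 and 49.3, 34.8 and 32.2 CPM in shNSD2 1, 2 and 3. All knockdown libraries were above all controls, with shNSD2 1 the highest. The mean rose from 18.9 ± 2.64 to 38.8 ± 9.19 CPM (n = 3, SD), a log2 fold change of 1.03 (SE 0.161, edgeR adjusted p = 0.00226). NRG4, an ERBB4 ligand, did not pass the test (log2 fold change -0.29, edgeR adjusted p = 0.569), and BTC and NRG2 were below the filter.

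Of 10 genes of ligand release, 7 were tested and 4 fell, all of them ADAM proteases, beside 15.2% of all tested genes called lower. The list median was -0.30. ADAM10, a sheddase of EGF and betacellulin precursors, fell from 297 ± 70.5 to 194 ± 20.3 CPM and ADAM9 from 357 ± 99.3 to 196 ± 36.7 CPM (n = 3, SD; edgeR adjusted p = 0.0173 and 0.0102). ADAM17, the main sheddase of TGF-alpha, amphiregulin and HB-EGF, fell by 0.55 on the log2 scale and ADAM15 by 0.30, both named after their values were seen (edgeR adjusted p = 0.0309 and 0.0408). The groups overlapped for ADAM17, with shCTR 4 at 21.1 CPM and shNSD2 1 at 21.9 CPM. As for EGFR, shCTR 4 was the lowest control for ADAM9, at 251 CPM, and for ADAM10, at 223 CPM. With a library left out, 1 or 2 genes were lower without shCTR 1, shCTR 2, shNSD2 1 or shNSD2 2, 5 were lower without shCTR 4, no gene was called lower by edgeR without shNSD2 3, and 1 was higher without shCTR 1. The GC and length correction left 2 genes lower and ended the call of ADAM10 (log2 fold change -0.28, edgeR adjusted p = 0.0828). In each fit without a library 4 or 5 genes were lower at an unadjusted p under 0.05.

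Of 20 genes of receptor turnover and inhibition, 19 were tested, 3 rose and 6 fell, with a median of -0.04. Over all tested genes 15.5% were called higher and 15.2% lower. LRIG1, which encodes a membrane protein that promotes loss of ERBB receptors, rose from 85.6 ± 14.97 to 122 ± 18.4 CPM, and the endocytic adaptor gene EPS15 rose from 107 ± 6.36 to 134 ± 2.87 CPM (n = 3, SD; edgeR adjusted p = 0.0194 and 0.0185). The related genes LRIG2 and LRIG3, named after their values were seen, went the other way. Their log2 fold changes were -0.31 and -0.51 (edgeR adjusted p = 0.0485 and 0.0436), and the groups overlapped for LRIG3. SOCS4, a SOCS box gene linked to EGFR degradation, fell from 58.9 ± 9.55 to 40.5 ± 2.74 CPM, and USP8, a deubiquitinase that acts on internalized receptors, fell from 48.5 ± 5.65 to 36.5 ± 2.49 CPM (n = 3, SD; edgeR adjusted p = 0.00899 and 0.0152). The ubiquitin ligase gene CBL, which tags EGFR for degradation, did not pass the test. These calls were loosely held: 0 to 6 members were higher and 0 to 9 lower by edgeR with a library left out, the most without shCTR 4. At an unadjusted p under 0.05 these ranges were 3 to 7 and 5 to 9. After the GC and length correction, USP8 no longer passed (log2 fold change -0.06, edgeR adjusted p = 0.613), and 1 member was lower.

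All 21 genes of adaptors and the RAS-MAPK cascade were tested, 5 rose and 3 fell, with a median of -0.06. The shares over all tested genes were 15.5% higher and 15.2% lower. MAPK3, which encodes ERK1, rose from 46.1 ± 3.93 to 64.4 ± 5.27 CPM, and MAP2K2, which encodes the kinase MEK2 upstream of it, rose from 152 ± 13.4 to 190 ± 8.73 CPM (n = 3, SD; edgeR adjusted p = 0.00584 and 0.0285). The adaptor gene SHC3 fell from 4.68 ± 1.09 to 2.23 ± 0.901 CPM (n = 3, SD; edgeR adjusted p = 0.0179). MAPK3 was called whichever library was left out, whereas MAP2K2 and SHC3 each lost the call in most such fits, and MAP2K2 also after the GC and length correction (edgeR adjusted p = 0.0911). In these fits 1 to 6 members were higher and 0 to 5 lower, or 5 to 7 and 3 to 6 at an unadjusted p under 0.05.

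Of 19 genes of the PI3K-AKT, PLCG and STAT branches, 17 were tested, 1 rose and 1 fell, with a median of 0.02. Among all tested genes 30.7% were called in either direction. PIK3R1, the p85-alpha regulatory subunit of PI3K, fell from 59.4 ± 7.38 to 40.5 ± 1.14 CPM (n = 3, SD; edgeR adjusted p = 0.00426), and was called whichever library was left out. STAT5A rose from 5.83 ± 1.58 to 8.64 ± 1.04 CPM, a log2 fold change of 0.56 (n = 3, SD; edgeR adjusted p = 0.0427), with overlapping groups, and lost the call in most fits without a library. Without shCTR 4, 2 members were higher and 5 lower.

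Of 18 ERK-induced genes, 15 were tested, 3 rose and 4 fell, with a median of 0.00 to 2 decimals. For all tested genes the shares were 15.5% higher and 15.2% lower. DUSP4, a nuclear phosphatase that acts on ERK, rose from 51.3 ± 15.3 to 157 ± 36.3 CPM, and the receptor-pathway inhibitor gene SPRY1 fell from 35.3 ± 5.29 to 13.6 ± 0.655 CPM (n = 3, SD; edgeR adjusted p = 0.00130 and 0.000199). PHLDA1 fell from 26.9 ± 2.94 to 16.1 ± 1.47 CPM (n = 3, SD; edgeR adjusted p = 0.00201). ETV5, an ETS transcription factor gene, rose by 1.57 on the log2 scale but stood at only 0.219 ± 0.127 and 0.655 ± 0.101 CPM (n = 3, SD; edgeR adjusted p = 0.0190). The other members called, named after their values were seen, were SPRY4 and SPRED1, lower, and FOSL1, higher. SPRY4 fell from 3.18 ± 0.775 to 0.880 ± 0.640 CPM and SPRED1 from 9.48 ± 1.81 to 6.16 ± 0.618 CPM (n = 3, SD; edgeR adjusted p = 0.0120 and 0.0169). FOSL1 stood at only 0.246 ± 0.163 and 0.603 ± 0.0565 CPM (n = 3, SD; edgeR adjusted p = 0.0487). Both SPRY4 and SPRED1 encode inhibitors of the pathway, but the related genes SPRY2, SPRED2 and SPRED3 did not pass the test (log2 fold change 0.11, 0.13 and 0.0045). DUSP4, SPRY1 and PHLDA1 were called whichever library was left out, and ETV5 was not. DESeq2 called 4 members lower but only 1 higher, DUSP4, and so called neither ETV5 (DESeq2 adjusted p = 0.0526) nor FOSL1. In the fits without a library 1 or 2 members were higher and 3 or 4 lower.

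**Figure D5:**
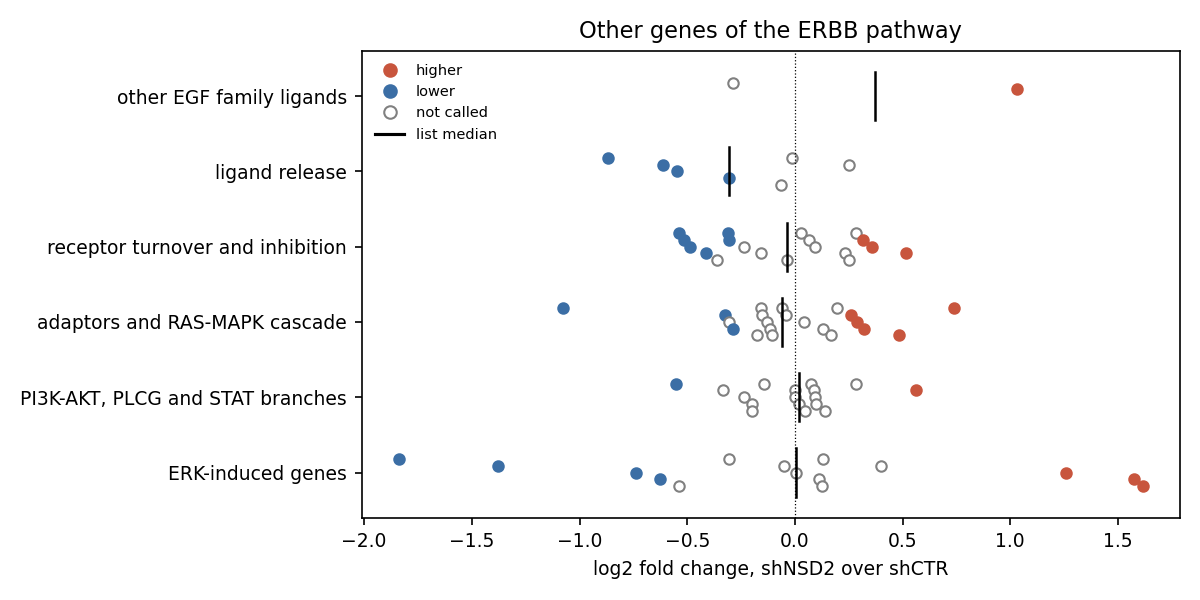
Log2 fold change of shNSD2 over shCTR for each tested gene of 6 ERBB pathway lists (points, filled where the adjusted p was under 0.05, vertical line for the list median). The medians of 4 lists lie within 0.06 of 0, that of ligand release is -0.30, and EGF stands at 1.03.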

How the data were processed

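RNA-seq of 6 libraries, 3 per shRNA, was deposited as 1 table of raw read counts per gene, which the authors did not normalize, judged from whole numbers with a different total in each library. Polyadenylated RNA was prepared with a KAPA mRNA kit, per the labels' protocols. CASAVA 1.8.2, STAR 2.6.0a and GRCh38 are named per the submitters' processing notes. The counting program, annotation and strand setting were not given in the sources used here. Groups came from the sample titles.

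The members and gene lists were chosen with earlier results of these data known. Counts were fitted with edgeR 4.0.16 in R 4.3.3 (filterByExpr by group, TMM, glmQLFit and glmQLFTest, no covariate). The filter kept 17160 genes and removed 14253, and p-values were adjusted over all genes tested. Each SE was the log2 fold change divided by the root of F. Named list genes were the 2 called members of smallest p in each direction, and some genes are left out of the text. Positions and exon lengths came from GENCODE 29 on GRCh38, which held 31313 of 31413 identifiers, and upstream sequences from RefSeq on GRCh38.p14, matched for 7 of 10 members. Alternatives were other scaling factors, DESeq2 1.42.0, limma-voom (limma 3.58.1), other filters, a robust fit, a replicate block, each library left out, another exon length, and, chosen after the data were seen, a correction for GC content and length and receptor shares without each library. Tested on simulated counts for 17160 genes, of which 200 were changed, the fit of shNSD2 against shCTR recovered 46% of genes changed 1.5-fold and 74% of those changed 2-fold. In it 10 of 130 calls were false. Each gene was drawn on its own, with no shift shared by the genes of a library. Only 200 genes were changed, whereas 5263 were called in the data. For both reasons these rates need not hold for the real libraries.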

Additional observations from a re-analysis of the deposited data

How the results depend on the processing

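EGFR, ERRFI1 and NSD2 kept their direction and call under all 10 alternatives and in all 6 fits without a library, with log2 fold changes of -1.60 to -1.05, 0.38 to 0.49 and -1.36 to -0.997. Genes called among all numbered 2436 to 8262 with a library left out (1116 to 4251 higher, 1320 to 4011 lower), the most without shCTR 4, while each fit without a library has fewer samples. Members called numbered 2 to 4 and lower members 1 to 3 in those fits, since ERBB3 (-0.29) and HBEGF (-0.45) passed without shCTR 4, within ranges of -0.29 to -0.18 and -0.45 to -0.23. The GC and length correction, chosen after the data were seen, called ERBB2 (0.33), so that 2 members were higher. TGFA, never called, turned sign with the replicate block (-0.27), which rests on libraries 1 and 2 of each group. It ranged from -0.16 to 0.25 with a library left out. Genes called in the 6 pathway lists numbered 8 to 45 with a library left out (4 to 17 higher, 4 to 28 lower), against 13 higher and 18 lower in all 6 libraries. DESeq2 called 8 higher and the correction left 11 lower. The cause of these moves was not tested. With the longest transcript as the length, EGFR took 12.7% of receptor transcripts in shNSD2, ERBB2 28.3% in shCTR and 40.7% in shNSD2, and ERBB3 46.6% in shNSD2, while the direction of the EGFR and ERBB2 shares was the same. The replicate numbers 1 and 2 are shared by the groups but did not pair the libraries (correlation of deviations 0.04 and -0.17 across 11218 genes). Some pairs of unlike number had larger values, 0.47 for shCTR 2 with shNSD2 1 and 0.42 for shCTR 4 with shNSD2 3. The value for shCTR 2 with shNSD2 3 was -0.43, and what such libraries share was not tested. Number 4 occurs only in shCTR and number 3 only in shNSD2. In the replicate block the fold changes therefore rest on libraries 1 and 2 of each group, without shCTR 4 and shNSD2 3. That block gave -1.50 for EGFR and 0.48 for ERRFI1, and 0.45 for STAT5A, which it did not call (edgeR adjusted p = 0.09996). TGFA, at 18 to 30 counts per library, has an SE of 0.277 on the log2 scale, and ERBB4 and AREG allow no judgement at this depth.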

Other observations

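Genes whose log2 CPM followed the members most closely over the 6 libraries were listed among the 11218 tested genes that averaged at least 5 CPM. The libraries share the split by shRNA and the position of shCTR 4, so these likenesses are descriptions with no test. For EGFR they included TRIO, a guanine nucleotide exchange factor gene (Pearson r = 0.9998), and the inner nuclear membrane gene LEMD3 (0.9994). TRIO stood at 148, 134 and 96.0 CPM in shCTR 1, 2 and 4 and at 86.7, 82.3 and 76.3 CPM in shNSD2 1, 2 and 3, with shCTR 4 near the knockdown libraries as for EGFR. The gene most like ERBB2 was TMCC1 (0.991), that most like ERBB3 was ANO6 (0.999), and that most like HBEGF was SCPEP1 (0.997). ERRFI1 was followed most closely by LPAR3, a lysophosphatidic acid receptor gene (0.999), at 97.5, 91.2 and 99.6 CPM in the controls and 131, 137 and 128 CPM in the knockdown libraries. For TGFA it was LUC7L (0.985).

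Luminal markers divided as well. Of 10 tested, 2 rose and 2 fell, beside 15.5% of all tested genes called higher and 15.2% called lower. The luminal keratin genes KRT8 and KRT18 rose by 0.41 and 0.48 on the log2 scale, whereas the kallikrein gene KLK2 fell by 0.37 (edgeR, each called).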
